A study of Mus musculus with 12 samples.

Results

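The subject is the set of nuclear genes for the subunits of the 5 respiratory chain complexes, measured by bulk RNA sequencing in lung macrophages sorted as Cx3cr1+. Members are the protein-coding genes of the count table whose symbols begin with Nduf, Uqcr, Cox4 to Cox8 or Atp5, together with Sdha, Sdhb, Sdhc and Sdhd, with symbols containing -ps left out. The rule found 93 members among 52636 genes, of which 22027 are protein coding. Complex I has 44 of them, complex II 4, complex III 8, complex IV 20 and complex V 17. Because the rule goes by symbol, it also holds 8 assembly factors of complex I (Ndufaf genes) and 8 isoforms of complex IV subunits that are known mainly from muscle, testis or hypoxic cells.

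The mouse libraries form 3 groups of 4. Saline WT stands for wild-type cells after saline, bleomycin WT for wild-type cells after bleomycin, and bleomycin KO for cells after bleomycin whose label is IL4Ra KO, a deletion of the alpha chain of the IL-4 receptor. Bleomycin injures the lung and serves as a model of pulmonary fibrosis. The labels give no age, sex, strain, time after bleomycin or Cre driver, and leave it unsaid whether each library comes from its own animal. Every p-value below therefore reflects library-to-library spread, part of which may be technical. The 3 groups include no KO cells given saline. A difference between KO and WT that was there before bleomycin therefore cannot be told from one that arose under it. Bleomycin KO and saline WT differ in both label and treatment.

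Complex I passes electrons from NADH to ubiquinone, complex II passes them from succinate, complex III moves them on to cytochrome c and complex IV hands them to oxygen. Complex V, the ATP synthase, uses the proton gradient so made. Mitochondrial DNA encodes the hydrophobic core of complexes I, III, IV and V, and the nuclear genome encodes the rest and the whole of complex II. Macrophages activated by IL-4 are known for a reliance on oxidative phosphorylation, whereas neutrophils hold few mitochondria.

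Total counts ran from 3534193 to 18051113 in 11 libraries and stood at 60598 in saline WT 2, where 30 of the 93 members had 0 counts and 52 had 3 or fewer. Levels are given as CPM, which here means counts divided by a TMM-adjusted library size. In saline WT 2 a total of 3 counts comes to 32.4 CPM, so a 0 there allows up to 32.4 CPM. Bleomycin WT 4 stood apart in the other direction, with a TMM factor of 0.579 and 28 of 87 tested members over 2-fold above, and 15 over 2-fold below, the median of the other 3 libraries of its group. Saline WT 2 had 13 and 42 such members. Most counts of members and medians are therefore given over all 12 libraries and over the 10 without these 2, a choice made after seeing the data, and the text names the set a value comes from. Il4ra itself stood at 235 to 473 CPM in the libraries labelled KO and at 138 to 626 CPM in bleomycin WT (KO over WT in log2 -0.09, SE 0.58, edgeR adjusted p 1.0), so its level did not separate the groups. Which exons were deleted was not given in the sources used here.

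All 10 macrophage markers had counts in every group, with summed levels of 13447 to 32701 CPM in saline WT, 22664 to 45400 in bleomycin WT and 42132 to 62662 in the libraries labelled KO. Lyz2 gave most of each sum, at 9318 to 28124, 14487 to 39157 and 34559 to 55533 CPM in that order. The other markers did not all go in 1 direction. Cx3cr1 stood at 98.1 to 940, 7.46 to 113 and 86.2 to 121 CPM, whereas Mertk stood at 0 to 98.5, 48.5 to 332 and 158 to 270. Csf1r stood at 930 to 2164, 273 to 2579 and 1256 to 1878 CPM. The neutrophil list summed to 2677 to 29392 CPM in saline WT, 564 to 1640 in bleomycin WT and 1194 to 1974 in the KO libraries. The lung epithelium list stood at 1466 to 2363, 138 to 842 and 130 to 585 CPM in the same order. A list of 10 alveolar macrophage genes stood at 1557 to 4522, 1248 to 2668 and 1528 to 1978 CPM, and its genes differed in direction. Krt79 stood at 63.2 to 184, 0.533 to 8.79 and 2.83 to 12.3 CPM, whereas Itgax stood at 176 to 243, 188 to 1200 and 272 to 505. The endothelium list stood at 270 to 436 CPM in saline WT, 96 to 168 in bleomycin WT 1 to 3, 809 in bleomycin WT 4 and 85.6 to 182 in KO. All 10 genes of each list had counts in every group. The part of these cells in the differences between saline and bleomycin described below was not tested. Bulk libraries also cannot tell fewer cells of a type from less RNA per cell.

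Promoters of members were searched for motifs of factors known to act on respiratory genes. RefSeq windows (GRCm38.p6) of 250 bases before to 50 after the start were matched for 77 members, giving 83 windows. NRF1, nuclear respiratory factor 1, was searched as GCGCATGCG, the ETS motif bound by GABP as CCGGAAGT, YY1 as AAGATGGCG and the ERR half-site of estrogen-related receptors as TCAAGGTCA, all on both strands. The NRF1 core is nearly its own reverse complement, so 1 place can match on both strands and was counted once. One promoter per motif is shown, that of the matching member with the highest level per length over 10 libraries. Capitals mark the matched letters. Each window lies on the minus strand and is written 5′ to 3′: Cox6a1 at chr5:115348909-115349208, Cox8a at chr19:7217567-7217866, Atp5j at chr16:84834927-84835226 and Atp5g3 at chr2:73911277-73911576.
Cox6a1: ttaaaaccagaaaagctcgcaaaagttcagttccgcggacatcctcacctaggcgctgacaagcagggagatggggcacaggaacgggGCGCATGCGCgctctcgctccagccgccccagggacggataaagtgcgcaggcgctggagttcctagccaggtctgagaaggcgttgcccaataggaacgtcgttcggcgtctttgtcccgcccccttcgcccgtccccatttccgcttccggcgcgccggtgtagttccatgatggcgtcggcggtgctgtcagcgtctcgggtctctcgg
Cox8a: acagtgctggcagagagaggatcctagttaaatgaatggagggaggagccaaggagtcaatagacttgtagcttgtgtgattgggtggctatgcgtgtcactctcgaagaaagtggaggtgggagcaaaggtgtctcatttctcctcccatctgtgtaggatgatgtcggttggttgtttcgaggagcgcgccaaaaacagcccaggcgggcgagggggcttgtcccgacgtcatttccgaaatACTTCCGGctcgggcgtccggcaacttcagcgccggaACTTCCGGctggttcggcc
Atp5j: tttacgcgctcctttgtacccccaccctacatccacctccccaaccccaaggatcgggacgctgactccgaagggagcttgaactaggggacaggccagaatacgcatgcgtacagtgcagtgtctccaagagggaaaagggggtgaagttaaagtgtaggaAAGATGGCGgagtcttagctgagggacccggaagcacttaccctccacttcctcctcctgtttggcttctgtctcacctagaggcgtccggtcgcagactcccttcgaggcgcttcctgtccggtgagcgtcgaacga
Atp5g3: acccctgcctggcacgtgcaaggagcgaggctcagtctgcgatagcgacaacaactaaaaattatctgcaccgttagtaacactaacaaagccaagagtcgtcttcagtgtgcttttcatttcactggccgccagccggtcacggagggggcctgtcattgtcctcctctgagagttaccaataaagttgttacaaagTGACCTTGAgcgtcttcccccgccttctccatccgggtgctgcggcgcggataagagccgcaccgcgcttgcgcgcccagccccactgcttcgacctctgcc

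The Cox6a1 window holds the NRF1 core at -162 from the start, Atp5j holds the YY1 motif at -88 and Atp5g3 the ERR half-site at -52. Cox8a holds the ETS motif in both places shown, one across the start and one after it. Over the 83 member windows the NRF1 core was in 12%, against 2.35% of 21263 windows of protein-coding genes, and the YY1 motif was in 12% against 1.83%. The ERR half-site was in 2.41% against 0.334%, which is 2 members, Atp5g3 and Sdhd. The ETS motif was in 6.02% against 5.15%. At least 1 of the 4 motifs was found in 25 of the 77 matched members. By window this was 31.3% of member windows against 9.16% of windows of protein-coding genes. A match says only that the letters are in the window.

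Levels per length (RPKM, TMM-scaled CPM per 1000 exonic bases, mean of 10 libraries) ranged over the members from 0.223 for Atp5g2 to 735 for Cox4i1, the constitutive form of complex IV subunit 4. Atp5b, the catalytic beta subunit of F1, followed at 533, Atp5e, the small F1 epsilon subunit, at 472 and Cox6b1 at 429. The highest in complex III was Uqcr10 (337), in complex I Ndufa2 (301) and in complex II Sdhb (244). Complex medians were 159 RPKM for complex II, 113 for III, 95.9 for V, 48.0 for I and 27.0 for IV. Complex IV holds the highest member and also 5 of the 8 lowest, all rare isoforms.

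Subunits of 1 complex did not stand at 1 level. Complex II holds its subunits in equal numbers, and its RPKM were 244 for Sdhb, 220 for Sdhd, 98.2 for Sdha and 29.2 for Sdhc. RPKM divides by 1 exonic size per gene, and which transcripts of a gene were expressed was not determined. The protein-coding transcripts of these genes hold 1093, 1182, 2900 and 3277 different 50-base stretches in that order. The part of the sizes used in the gaps between genes was not tested, here or for the other levels per length. Some members share sequence with other genes. Of the 93 members, 45 share no 50-base stretch of their transcripts with another gene's transcripts (GENCODE vM21), 47 share up to 50% of such windows, and Atp5l shares 84.8%. Of the 18 members under 10 CPM in the mean of 12 libraries 7 share a window, against 48 of all 93. Atp5l, a membrane subunit of the ATP synthase, stood at 1.34 RPKM. In the c-ring, Atp5g1, Atp5g2 and Atp5g3 encode the same mature c subunit, and Atp5g3, which shares no window, stood at 361 RPKM, whereas Atp5g1 (11.1% shared) stood at 1.84 and Atp5g2 (38.3% shared) at 0.223. Cox7c, a core-bound small subunit of complex IV, shares 23.0% of its windows and stood at 4.24. Atp5o (47.6% shared) stood at 101. The handling of reads that match several genes was not given in the sources used here, so levels of members with shared windows are uncertain, and their comparison across libraries rests on the reads that were counted.

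**Figure D1:**
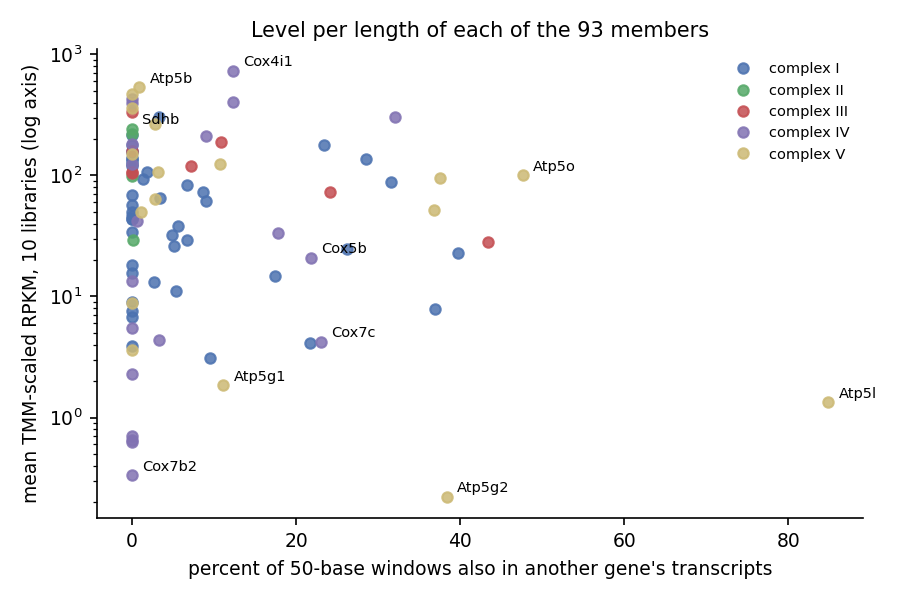
Level per length of each of the 93 members (mean TMM-scaled RPKM over 10 libraries, log axis) against the percentage of its 50-base windows that also occur in another gene's transcripts, coloured by complex. Members with no shared window span from Cox7b2 (0.333) to Atp5e (472), and Atp5l stands alone at 84.8% shared and 1.34 RPKM.

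Bleomycin WT was first compared with saline WT, which shows how the members stood after injury with the receptor labelled intact. Summed over all members, saline WT 1 to 4 had 8913, 7523, 9396 and 7909 CPM and bleomycin WT 1 to 4 had 11083, 9042, 11858 and 18587 CPM. Bleomycin WT 2 lies below the highest saline library, so the groups overlap, and bleomycin WT 4 is far above the rest. None of 87 tested members passed edgeR's quasi-likelihood test at an adjusted p of 0.05 over 12 libraries (background 0.024% of 16679 genes), nor of 89 over 10 libraries (background 0.431% of 18812). DESeq2 over 12 libraries called no member (background 2.99%), nor did limma-voom (0.006%) or its form with library quality weights (1.77%).

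At an unadjusted p under 0.05, edgeR had 9 members higher (10.3% of those tested) and 0 lower over 12 libraries, beside backgrounds of 8.47% and 6.19%. Over 10 libraries it had 6 higher and 1 lower, beside 6.49% and 7.56%. The shares of higher members lie near the background. The median log2 fold change of the members was 0.43 over 12 libraries, where all genes tested had 0.08, and 0.16 over 10 libraries, where all genes had -0.14. Positive values were found in 65 of 87 members (74.7%, against 52.9% of all genes) and in 64 of 89 (71.9%, against 44.1%). With RLE scaling, another way to set library factors, the members' median was 0.22 and that of all genes -0.09, and 59 of 87 members were positive. Among genes that passed a stricter count filter the median of members was 0.32 and that of all genes 0.22, a gap of 0.10 where the milder filter gave 0.34.

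The libraries labelled KO were compared with saline WT in the same way. Both comparisons use the same saline libraries. Member sums were 9572, 11496, 11637 and 11769 CPM in bleomycin KO 1 to 4, each above the highest saline library at TMM scaling, but not with RLE or with no TMM scaling, where the groups overlap. No member passed edgeR over 12 libraries (background 0.018%) or over 10 (0.643%), and none passed DESeq2 (2.22%), limma-voom (0.0719%) or the weighted fit (1.35%). At an unadjusted p under 0.05, edgeR over 12 libraries had 0 members higher and 1 lower (backgrounds 2.96% and 6.07%). Over 10 libraries it had 12 higher and 1 lower (6.35% and 10.5%). The 12 are 13.5% of 89. The median was 0.36 against 0.04 for all genes over 12 libraries and 0.29 against -0.15 over 10, with 72 members positive in each fit and 59 with RLE scaling. Under the stricter filter it was 0.18 against 0.10.

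Members whose libraries do not overlap between groups were counted in both sets of libraries. These counts, and the overlap of single genes described below, are at TMM scaling and were not repeated with other scalings. Over 12 libraries, 4 of 87 members (4.6%) were higher in every bleomycin WT than in every saline WT library and 0 were lower, beside 4.93% and 0.929% of all genes. For the KO libraries over saline WT these counts were 13 (14.9%) and 0, beside 8.17% and 1.04%. Over 10 libraries, for bleomycin WT against saline WT, 9 of 89 members (10.1%) were higher in every bleomycin library and 1 was lower, beside 11.2% and 9.43% of all genes. For the KO libraries against saline WT, 17 (19.1%) were higher and 1 lower, beside 8.38% and 7.8%. The lower member was Cox4i2 in both.

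**Figure D2:**
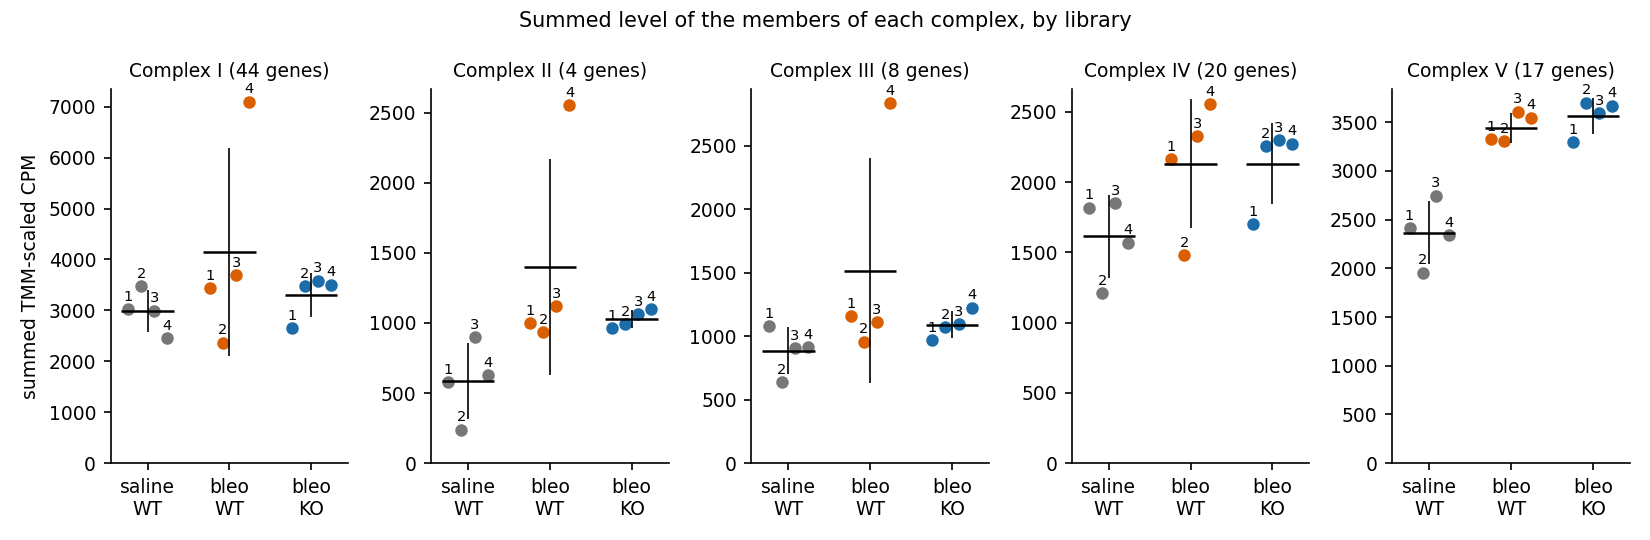
Summed TMM-scaled CPM of the members of each complex in each library, with the replicate number beside each point, the group mean as a bar and the SD as a vertical line (n = 4 per group). In complex V all 8 bleomycin libraries (3296 to 3702) lie above the 4 saline libraries (1957 to 2747), whereas complexes I, III and IV overlap and bleomycin WT 4 is far above its group in complexes I, II and III.

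Complex V gave the tightest groups. Its sums were 2416, 1957, 2747 and 2339 CPM in saline WT 1 to 4, 3324, 3304, 3607 and 3547 in bleomycin WT and 3296, 3702, 3595 and 3671 in the KO libraries. No bleomycin library overlaps a saline library, and the group means were 2365 ± 325, 3446 ± 154 and 3566 ± 186 (SD, n = 4). The ratio to saline WT was 1.46 for bleomycin WT and 1.51 for KO, and 1.36 and 1.43 over 10 libraries. With RLE scaling the groups still did not overlap (1.26 and 1.33). With no TMM scaling bleomycin WT 4, at 2046 CPM, lay below all saline libraries and the ratio of bleomycin WT was 1.09, or 1.25 over 10 libraries. As a share of all member counts, which no scaling touches, complex V took 26.0 to 29.6% in saline WT and 30.9 to 34.4% in the KO libraries, without overlap. In bleomycin WT it took 30.0 to 36.5% in replicates 1 to 3 and 19.1% in replicate 4. The 26.0% is from saline WT 2, which had 696 member counts. Such a share also moves with the other complexes. It was highest in bleomycin WT 2 (36.5%) and KO 1 (34.4%), where complex I had its lowest shares (26.2% and 27.6%). Both libraries also had the lowest ratios of short to longer members, given further below. Neutrophil marker sums in saline WT 1 to 4 were 2677, 3675, 29392 and 18260 CPM, and their part in the complex V difference was not tested.

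Most of that sum came from the catalytic head, F1. Atp5a1, the alpha subunit, stood at 491, 519, 630 and 515 CPM in saline WT, 763, 965, 881 and 1182 in bleomycin WT and 906, 941, 779 and 872 in KO. At TMM scaling every bleomycin library lies above every saline library. Bleomycin WT exceeded saline WT in log2 by 0.81 (SE 0.33, edgeR adjusted p 0.29) over 12 libraries and by 0.65 (SE 0.17, adjusted p 0.132) over 10. For KO over saline WT it was 0.70 (SE 0.33, adjusted p 0.555) and 0.67 (SE 0.16, adjusted p 0.0939), the smallest adjusted p of any member in these fits.

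Atp5b, the beta subunit that carries the catalytic sites, stood at 843, 303, 839 and 727 CPM in saline WT, 1010, 1151, 1103 and 699 in bleomycin WT and 1112, 1154, 1061 and 1214 in KO. Only bleomycin WT 4 falls among the saline values, and without it and saline WT 2 the log2 fold changes were 0.41 (SE 0.15) for bleomycin WT and 0.48 (SE 0.15) for KO over saline WT, with edgeR adjusted p of 0.278 and 0.152. Atp5d, the delta subunit of the central stalk, stood at 140 to 200 CPM in saline WT and 219 to 262 in the KO libraries, with 219 to 245 in bleomycin WT 1 to 3 and 160 in bleomycin WT 4. Atp5e stood at 155 to 227 CPM in saline WT and 120 to 257 in the bleomycin libraries, which overlap. All 5 F1 genes had positive log2 fold changes over saline WT in both comparisons and both fits, with medians of 0.48 for bleomycin WT and 0.70 for KO over 12 libraries and 0.40 and 0.48 over 10.

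Among the remaining ATP synthase genes, Atp5o, which links F1 to the peripheral stalk, stood at 39.9, 97.3, 65.0 and 55.5 CPM in saline WT, 101, 72.8, 116 and 427 in bleomycin WT and 81.1, 104, 109 and 104 in KO. Its highest saline value comes from the shallow saline WT 2, and without that library and bleomycin WT 4 the groups do not overlap. The 10-library log2 fold changes were 0.84 (SE 0.27, edgeR adjusted p 0.209) for bleomycin WT and 0.89 (SE 0.25, adjusted p 0.14) for KO. The 7 stalk and membrane genes had medians of 0.34 and 0.28 over 12 libraries, where 6 were tested, and 0.16 and 0.30 over 10. Atp5sl, named after the ATP synthase but known as DMAC2, an assembly factor of the complex I arm, stood at 1.95, 0, 24.3 and 27.1 CPM in saline WT and 16.5 to 37.8 in all bleomycin libraries except bleomycin WT 4 (0.889).

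Complex II, succinate dehydrogenase, is also the enzyme of the tricarboxylic acid cycle that oxidises succinate. Its sums were 576, 238, 897 and 626 CPM in saline WT, 998, 934, 1119 and 2552 in bleomycin WT and 961, 993, 1064 and 1096 in KO. All 8 bleomycin libraries lie above the saline libraries at TMM scaling, by a narrow margin between saline WT 3 and bleomycin WT 2, and the order of these 2 reversed with RLE or no TMM scaling. With RLE scaling KO 1 also lay below saline WT 3, by less than 1 CPM. The ratio to saline WT was 2.40 for bleomycin WT and 1.76 for KO over 12 libraries (2.10 and 1.59 with RLE scaling) and 1.45 and 1.47 over 10 (1.32 and 1.34 with RLE scaling). All 4 genes had positive log2 fold changes over saline WT in both comparisons and both fits. Their medians were 0.91 and 0.77 over 12 libraries, against 0.08 and 0.04 for all genes, and 0.56 and 0.53 over 10, against -0.14 and -0.15.

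Sdhc, a membrane anchor of the enzyme at chr1:171127165-171150603 (GENCODE vM21, GRCm38, minus strand), stood at 65.9, 21.6, 69.4 and 74.0 CPM in saline WT, 97.6, 103, 115 and 117 in bleomycin WT and 95.7, 101, 95 and 109 in KO. At TMM scaling no library of either bleomycin group overlaps saline WT. Over 10 libraries the log2 fold change was 0.57 (SE 0.19, edgeR adjusted p 0.236) for bleomycin WT and 0.51 (SE 0.18, adjusted p 0.208) for KO. Sdhb, the iron-sulfur subunit at chr4:140961203-140979193 (plus strand), stood at 159, 97.3, 268 and 193 CPM in saline WT, 347, 231, 365 and 1563 in bleomycin WT and 258, 330, 307 and 327 in KO. Its 12-library difference, 1.78 in log2 (SE 0.57, edgeR adjusted p 0.228) for bleomycin WT over saline WT was the largest with an unadjusted p under 0.05, and without the 2 libraries it was 0.59 (SE 0.25, adjusted p 0.332).

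Sdha, the flavoprotein subunit at chr13:74322254-74350280 (minus strand), stood at 135, 86.5, 302 and 196 CPM in saline WT and 260 to 382 in the 8 bleomycin libraries, and saline WT 3 overlaps them. Sdhd, the other membrane anchor at chr9:50596357-50603812 (minus strand), stood at 216, 32.4, 258 and 163 CPM in saline WT, 293, 218, 337 and 508 in bleomycin WT and 269, 277, 319 and 356 in KO. The KO libraries all lie above saline WT. For KO over saline WT in 10 libraries each of the 4 genes had an unadjusted p under 0.05 and a log2 fold change between 0.51 and 0.58, and the smallest edgeR adjusted p among them was 0.208. Over all genes 6.35% were higher at that level. Over 12 libraries 0 of the 4 reached it, where the share of all genes was 2.96%.

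**Figure D3:**
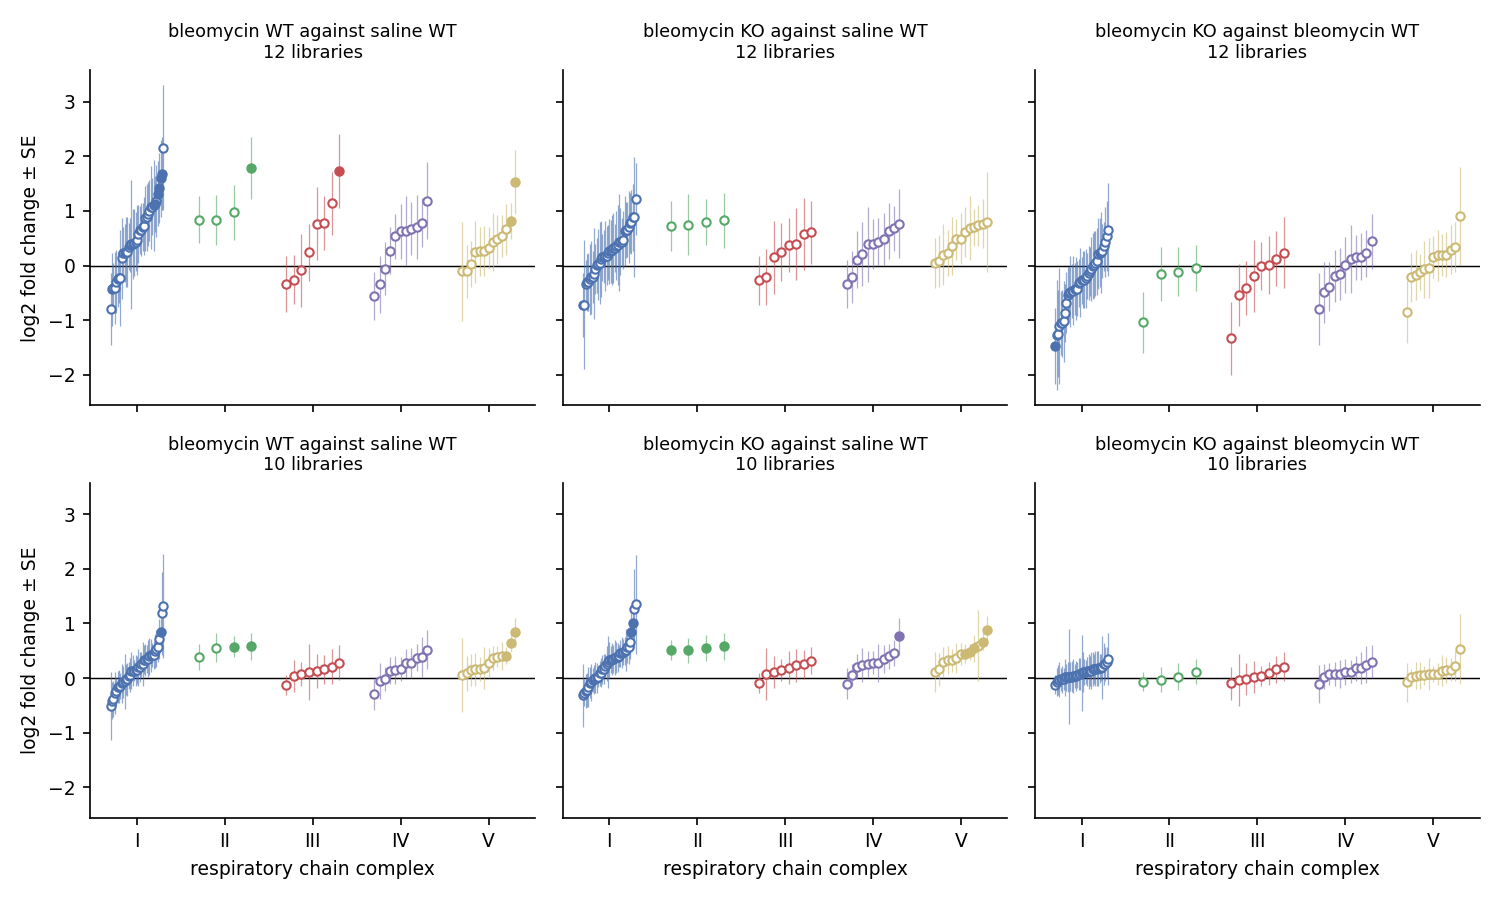
Log2 fold change with its SE for each member with a mean of 10 CPM or more, by complex, in the 3 comparisons with all 12 libraries (top) and 10 libraries (bottom). Filled points have an unadjusted edgeR p under 0.05 and no member passed an adjusted p of 0.05. With 10 libraries the values are closer together, and those of bleomycin KO against bleomycin WT lie between -0.12 and 0.53.

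Complex I is the largest set. Its sums were 3022, 3481, 2994 and 2459 CPM in saline WT, 3439, 2364, 3694 and 7098 in bleomycin WT and 2647, 3474, 3584 and 3503 in KO, and the groups overlap. Over 10 libraries the ratio to saline WT was 1.12 for bleomycin WT and 1.17 for KO at TMM scaling and 1.01 and 1.05 with RLE scaling. Over 12 libraries it turned with the scaling, from 1.39 for bleomycin WT and 1.1 for KO to 0.934 and 0.909 without TMM. The 7 core genes, which carry the flavin and iron-sulfur clusters, had medians of 0.57 for bleomycin WT and 0.32 for KO over 12 libraries and 0.20 and 0.35 over 10. The 29 accessory genes had 0.44 and 0.24, then 0.14 and 0.29. The median over complex I for bleomycin WT was 0.43 over 12 libraries and 0.14 over 10, where complex V had 0.26 and 0.18, and no difference between complexes was tested. Ndufv2, a core subunit next to the flavin site, stood at 75.2, 32.4, 75.2 and 71.5 CPM in saline WT, 112, 73.3, 118 and 275 in bleomycin WT and 78.7, 113, 116 and 109 in KO. Only bleomycin WT 2 lies within the saline range.

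Ndufa12, an accessory subunit added late in assembly, stood at 12.6, 0, 20.2 and 16.8 CPM in saline WT, 33.5, 21.2, 35.6 and 95.6 in bleomycin WT and 26.2, 37.3, 39.8 and 31.6 in KO, without overlap. Its log2 fold change over 10 libraries was 0.84 (SE 0.35, edgeR adjusted p 0.32) for bleomycin WT and 1.02 (SE 0.33, adjusted p 0.177) for KO. It shares 26.2% of its windows with other genes. Ndufc2, a membrane arm subunit, stood at 45, 0, 91.2 and 99.9 CPM in saline WT and 76.8 to 146 in the 8 bleomycin libraries, which overlap. The most abundant complex I genes differed little: Ndufb7 stood at 96.7 to 159 CPM in 3 saline libraries and 227 in saline WT 2, and at 94.5 to 163 in 7 bleomycin libraries and 332 in bleomycin WT 4. Ndufa2, whose highest saline value of 746 CPM is from saline WT 2, stood at 117 to 188 in the other 3 saline libraries and at 120 to 209 in 7 bleomycin libraries.

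Several complex I members had their position set by 1 library. Ndufa7 stood at 32.4 to 67.6 CPM in 11 libraries and 449 in bleomycin WT 4, and its log2 fold change of bleomycin WT over saline WT was 1.60 with that library and -0.02 over 10 libraries. Ndufs4, an accessory subunit whose loss causes a form of Leigh syndrome, stood at 56.3 to 99.6 CPM in 10 libraries, 238 in saline WT 2 and 8.89 in bleomycin WT 4. Its log2 fold change of -0.79 for bleomycin WT over saline WT became 0.15 without them. Ndufa13, also known as GRIM-19, stood at 125 to 202 CPM in 10 libraries, 422 in saline WT 2 and 240 in bleomycin WT 4. Ndufab1, the mitochondrial acyl carrier protein, stood at 5.74 to 30.6 CPM in saline WT and 8.24 to 18.5 in the bleomycin libraries.

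Among the 8 assembly factors, which build complex I and are not part of it, Ndufaf4 stood at 0, 32.4, 14.5 and 5.94 CPM in saline WT, 18.5, 13.8, 19.8 and 118 in bleomycin WT and 17.2, 15.5, 16.3 and 21.3 in KO. The saline values spread from 0 to that of the shallow library, and the log2 fold change over 10 libraries had an SE of 0.95 (1.32 for bleomycin WT) and 0.91 (1.35 for KO). Ndufaf1 stood at 0.486, 8.30 and 11.4 CPM in saline WT 1, 3 and 4, 130 in saline WT 2 and 12.6 to 19.2 in the KO libraries. Ndufaf3 stood at 14.5 to 32.4 CPM in saline WT, 21.9 to 40.4 in KO and 18.4 to 32.8 in bleomycin WT except 0.178 in bleomycin WT 4.

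Complex III gave sums of 1081, 638, 906 and 915 CPM in saline WT, 1160, 957, 1112 and 2836 in bleomycin WT and 969, 1071, 1095 and 1224 in KO. Saline WT 1 lies among the bleomycin libraries. The ratio to saline WT was 1.71 for bleomycin WT and 1.23 for KO over 12 libraries, and 1.11 and 1.13 over 10, where RLE scaling gave 0.99 and 1.01. Uqcr10, a small membrane subunit, stood at 130, 21.6, 126 and 128 CPM in saline WT, 173, 99.5, 163 and 496 in bleomycin WT and 117 to 195 in KO. Uqcrq, which lies next to cytochrome b, stood at 43.2 to 248 CPM in saline WT, 132 to 237 in bleomycin WT 1 to 3 and 1371 in bleomycin WT 4, and its log2 fold change over saline WT went from 1.73 to 0.13 without the 2 libraries. Uqcr11 stood at 43.2 to 96.1 CPM in saline WT and 60.1 to 206 in the bleomycin libraries.

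Complex IV sums were 1818, 1211, 1852 and 1570 CPM in saline WT, 2162, 1482, 2326 and 2554 in bleomycin WT and 1699, 2255, 2299 and 2274 in KO. At TMM scaling bleomycin WT 2 and KO 1 lie within the saline range and the other 6 bleomycin libraries above it. With RLE scaling bleomycin WT 1 (2174) and KO 2 (2161) also lie below the highest saline library (2189). The 12-library ratio of bleomycin WT was 1.32 and 0.986 without TMM scaling, where bleomycin WT 2 (1329), bleomycin WT 4 (1473) and KO 1 (1606) lie below all saline libraries. Cox4i1, the most abundant member per length, stood at 571, 54.0, 513 and 405 CPM in saline WT, 597, 454, 649 and 714 in bleomycin WT and 481, 662, 618 and 673 in KO, with a 10-library log2 fold change of 0.17 (SE 0.22) and 0.28 (SE 0.21). Cox6a1, the broadly expressed form of subunit 6a, stood at 222 to 236 CPM in 3 saline libraries, 540.5 in saline WT 2, and 130 to 270 in the bleomycin libraries. Cox6b1, which lies at the dimer interface of complex IV, stood at 86.5 to 228 CPM in saline WT, 182 to 345 in bleomycin WT and 246 to 332 in KO.

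The 8 tissue-restricted isoforms of complex IV were mostly low in counts, and 4 of them passed the count filter over 12 libraries and 5 over 10. Cox4i2, the lung and hypoxia-linked form of subunit 4, had 40, 0, 15 and 28 counts in saline WT 1 to 4, 1, 3, 12 and 36 in bleomycin WT and 13, 0, 9 and 1 in KO. In CPM these are 9.73, 0, 1.54 and 4.06, then 0.0999, 0.185, 0.974 and 6.4, then 0.816, 0, 0.696 and 0.114. Without saline WT 2 and bleomycin WT 4 every saline library lies above every bleomycin library, with fitted log2 differences of -3.60 for bleomycin WT (SE 1.56, edgeR adjusted p 0.34) and -3.64 for KO (SE 1.39, adjusted p 0.231). Bleomycin WT 4, at 6.4 CPM, lies above saline WT 3 and 4 and below saline WT 1, so with it the groups overlap. Summed pericyte and smooth muscle markers, cells that are known for Cox4i2, stood at 56.4 to 95.6 CPM in the 3 deeper saline libraries, 57.8 to 67.3 in bleomycin WT and 32.8 to 63.4 in KO, with all 10 genes present in each group. Their part in the Cox4i2 counts was not tested.

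Cox7a1, the heart and skeletal muscle form of subunit 7a, stood at 0.486, 0, 1.95 and 1.59 CPM in saline WT, 2.70, 2.47, 4.22 and 0 in bleomycin WT and 3.01, 4.94, 4.72 and 3.53 in KO. The KO libraries all lie above saline WT (10-library log2 fold change 1.56, SE 0.76, edgeR adjusted p 0.328). The cardiac muscle list summed to 60.3 to 131 CPM in the 3 deeper saline libraries and 5.87 to 47.7 in the bleomycin libraries, and Ttn gave 99.2 CPM of the sum in saline WT 1. The part of this list in the Cox7a1 counts was not tested. Cox6b2, a testis form, had 212, 372 and 601 counts in the saline WT, bleomycin WT and KO groups, and Cox6a2, a muscle form, 77, 119 and 161. Cox8b had 13, 7 and 0 counts, Cox8c 14, 7 and 6, Cox7b2 2, 3 and 11 and Ndufa4l2, a hypoxia-induced relative of Ndufa4, 24, 19 and 17.

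**Figure D4:**
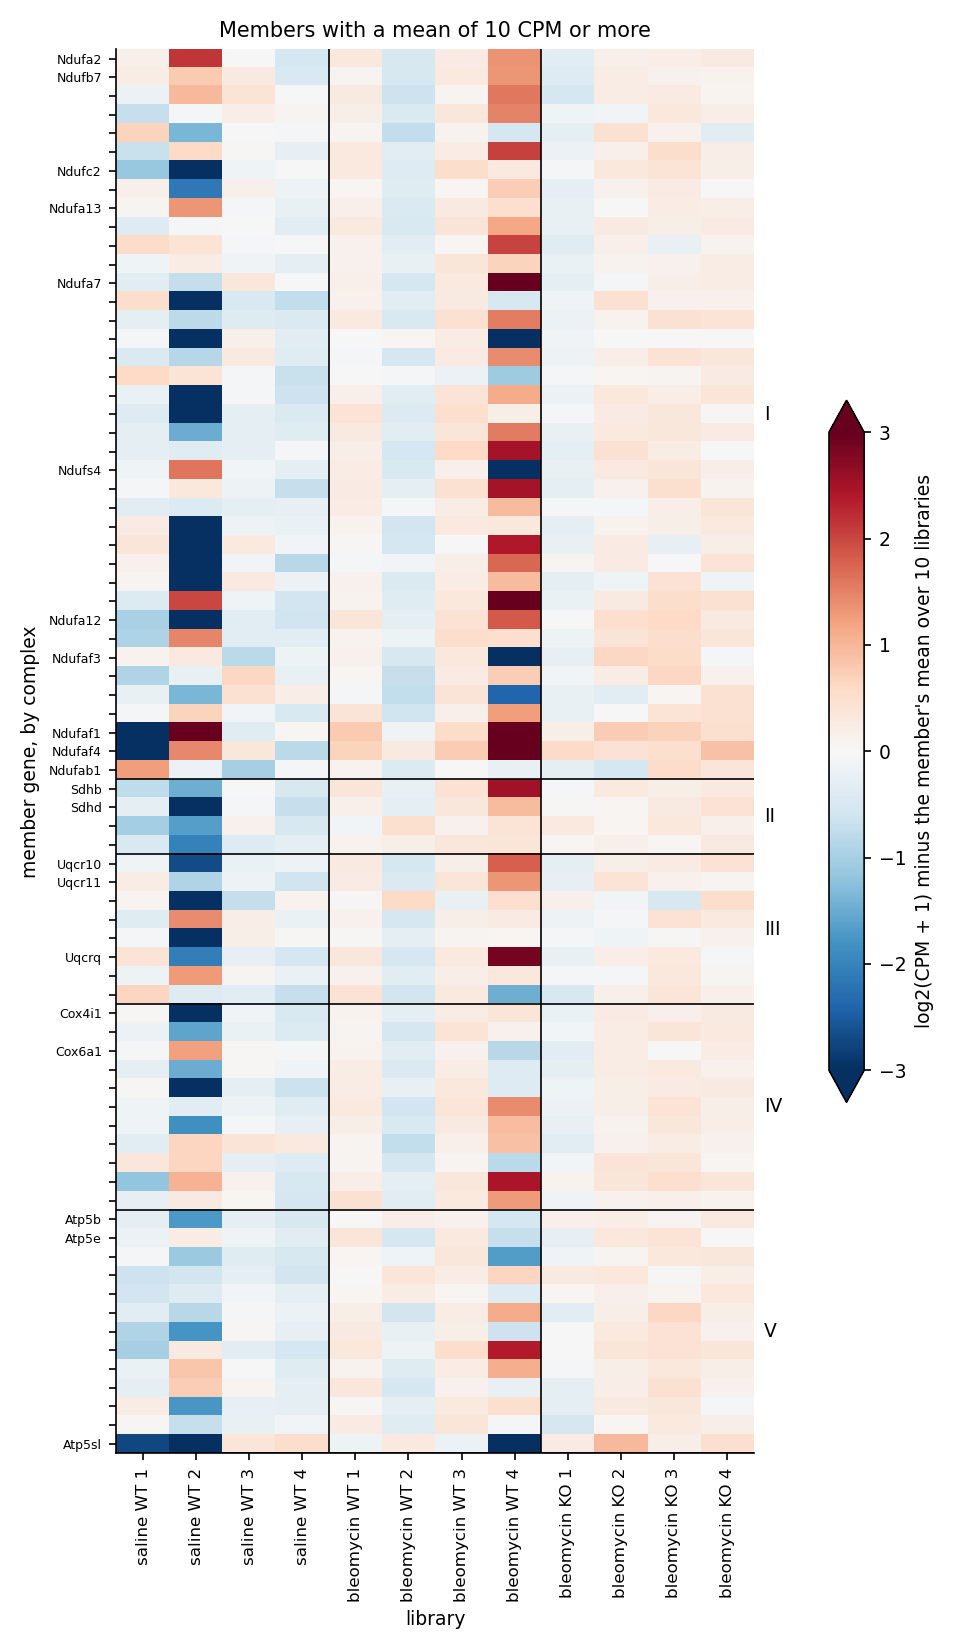
Each member with a mean of 10 CPM or more (rows, by complex, with the symbols of members chosen by the naming rule) in each of the 12 libraries (columns), as log2(CPM + 1) minus the member's own mean over the 10 libraries without saline WT 2 and bleomycin WT 4. Bleomycin WT 2 and KO 1 are pale blue over most rows, the lowest of their groups in 59 and 67 of 87 members, and saline WT 2 and bleomycin WT 4 hold both the darkest red and the darkest blue cells.

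The libraries labelled KO were then compared with bleomycin WT, the comparison that concerns the receptor. No member passed edgeR over 12 or 10 libraries, and the background was 0.0% in both, as it was with DESeq2 and both limma-voom fits. At an unadjusted p under 0.05, edgeR over 12 libraries had 0 members higher and 1 lower, Ndufa7, beside backgrounds of 0.186% and 3.69%. Over 10 libraries it had 0 and 0, beside 0.255% and 0.664%. Without overlap over 10 libraries were 0 members higher and 1 lower, beside backgrounds of 1.37% and 1.81%, and over 12 libraries 0 and 0, beside 0.905% and 0.594%.

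The direction of the small differences depended on bleomycin WT 4. Over 12 libraries 38 of 87 members were higher in KO, with a median log2 fold change of -0.07, where all genes had -0.01. Over 10 libraries 72 of 89 were higher, with a median of 0.08 where all genes had -0.02. Of 75 members with a mean of 10 CPM or more, 74 lay within 0.5 of 0 over 10 libraries, with a median SE of 0.27, whereas over 12 libraries 57 did, with a median SE of 0.53. The medians by complex over 10 libraries were 0.11 for I, 0.03 for III, 0.11 for IV and 0.09 for V, and 2 of 4 complex II genes were positive.

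Within the bleomycin groups the members divided by the exonic size given for each gene, a split at 1000 exonic bases chosen after the values were seen. That size is not the length of the transcript expressed. Ndufa11, for example, has 2661 exonic bases but 1103 different 50-base windows in its protein-coding transcripts. The 49 members under 1000 bases, divided by the 44 longer ones, gave ratios of summed CPM of 0.553 in bleomycin WT 2 and 0.615 in bleomycin KO 1, against 0.715 to 0.825 in 9 other libraries and 0.994 in the shallow saline WT 2. The short members summed to 3220 and 3646 CPM in those libraries, against 4820 to 7985 in the other bleomycin libraries, whereas the longer members summed to 5822 and 5925 against 6263 to 10602. The summed level of the 13 mitochondrially encoded subunits was lowest in the same libraries, at 2222 and 2736 CPM, against 3583 to 10511 in the others. In every library mt-Nd3, mt-Nd4l, mt-Co2, mt-Co3, mt-Atp6 and mt-Atp8 stood at 0 to 6.09 CPM, so the sum comes almost wholly from the other genes. Being a ratio within a library, the contrast of short and longer members does not depend on the scaling. RNA integrity values were not given in the sources used here. Longer members had medians of 0.43 for bleomycin WT and 0.41 for KO over saline WT with 12 libraries and 0.23 and 0.38 with 10, and short members 0.43 and 0.24, then 0.14 and 0.23.

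**Figure D5:**
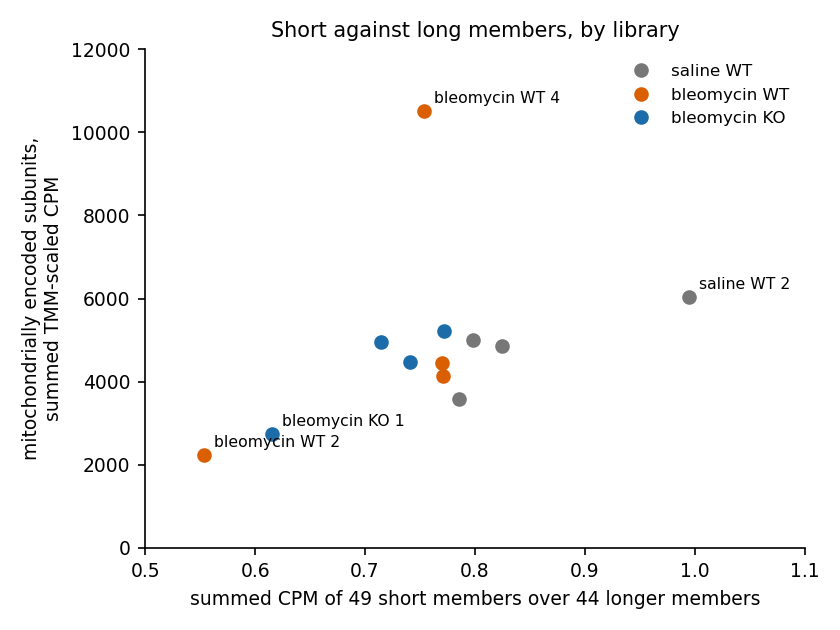
Summed TMM-scaled CPM of the 13 mitochondrially encoded subunits (y axis) against the ratio of the summed CPM of 49 members under 1000 exonic bases to that of 44 longer members (x axis), one point per library, coloured by group. Bleomycin WT 2 (0.553) and bleomycin KO 1 (0.615) lie lowest on both axes.

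Genes that work with the members were taken from 6 lists, and no gene of them passed edgeR in any comparison with 12 libraries. Among the 10 mitochondrially encoded subunits tested of 13, none had an unadjusted p under 0.05 against saline WT, and their medians were 0.55 for bleomycin WT and 0.15 for KO over 12 libraries and -0.23 and 0.07 over 10. Some core subunits of complex I show how far 1 library can reach. mt-Nd2 stood at 69.2 to 270 CPM in 11 libraries and 1852 in bleomycin WT 4. mt-Nd5 stood at 54 to 348 CPM in 11 libraries and 1250 in bleomycin WT 4, and mt-Nd4 at 168 to 424 CPM in 10 libraries, 1719 in saline WT 2 and 1142 in bleomycin WT 4. The list of 23 outer membrane, transport and chaperone genes had 21 positive values over saline WT in both comparisons, with medians of 0.68 and 0.52 over 12 libraries and 0.37 and 0.40 over 10. Over 10 libraries 4 of its genes were higher at an unadjusted p under 0.05 in each comparison, beside 6.49% and 6.35% of all genes, and over 12 libraries 4 and 0 were, beside 8.47% and 2.96%. Tomm70a, a receptor for imported carrier proteins, stood at 35.3, 0, 55.7 and 58.5 CPM in saline WT and 76.1 to 189 in the 8 bleomycin libraries, without overlap (10-library log2 fold change for KO 0.94, SE 0.25, edgeR adjusted p 0.115). Tomm40, the import pore, stood at 10.8 to 41.9 CPM in saline WT, 42.6 to 149 in bleomycin WT and 35.6 to 62.2 in KO, and Timm23, the inner membrane pore, at 0 to 1.54 CPM except 9.06 in bleomycin WT 4.

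Of 26 tricarboxylic acid cycle and pyruvate entry genes, 18 and 19 were positive over saline WT in 10 libraries, with medians of 0.37 and 0.31, and 0.70 and 0.53 in 12. Cs, citrate synthase, stood at 32.3, 43.2, 107 and 103 CPM in saline WT, 155, 237, 168 and 226 in bleomycin WT and 169, 129, 132 and 185 in KO, without overlap (10-library log2 fold change 1.19, SE 0.39, edgeR adjusted p 0.215 for bleomycin WT). Pdk4, the kinase that holds back pyruvate dehydrogenase, stood at 3.65, 0, 13.8 and 37.9 CPM in saline WT and 0.494 to 5.81 in the bleomycin libraries. Dlst, a subunit of the oxoglutarate dehydrogenase complex, stood at 64.9 to 139 CPM in 11 libraries and 401 in bleomycin WT 4. Of 18 biogenesis regulators tested, 7 and 8 were positive over 10 libraries and 9 and 12 over 12, and the one with the smallest p in both comparisons was Ppargc1b, a coactivator of ERR receptors. It stood at 1.22, 0, 1.13 and 5.79 CPM in saline WT, 9.59, 27.2, 7.63 and 95.4 in bleomycin WT and 15.9, 15.2, 10.2 and 6.72 in KO, without overlap. Its 10-library log2 fold change was 2.42 (SE 0.79, edgeR adjusted p 0.22) for bleomycin WT and 2.13 (SE 0.75, adjusted p 0.205) for KO. Polg2, the accessory subunit of the mitochondrial DNA polymerase, stood at 3.69 to 31.4 CPM in 11 libraries and 103 in bleomycin WT 4.

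Coq3, a methyltransferase of coenzyme Q synthesis, stood at 4.62, 0, 13.3 and 4.34 CPM in saline WT and 15.3 to 123 in the 8 bleomycin libraries, without overlap, in a list of 13 genes with 9 and 7 positive values over 10 libraries and 8 and 8 over 12. The 39 other subunits, carriers and assembly factors had 21 and 23 positive values and medians of 0.10 and 0.19 over 10 libraries, and 0.45 and 0.24 over 12. In that list Sdhaf1, an assembly factor of complex II, stood at 0, 0, 12 and 9.56 CPM in saline WT and 14.5 to 96.3 in the bleomycin libraries. Cox17, the copper chaperone of complex IV, stood at 30.9 to 75.7 CPM in saline WT, 25.8 to 50.5 in 7 bleomycin libraries and 399 in bleomycin WT 4. Cox11, another copper factor of complex IV, stood at 0 to 6.05 CPM in saline WT, 5.59 to 7.66 in 7 bleomycin libraries and 78.4 in bleomycin WT 4.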

How the data were processed

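RNA of 12 libraries was measured. Per the labels' protocols, SMART-Seq v4 cDNA was made from 2 ng RNA, 150 pg of it went into Nextera XT libraries, and single-end 50-base reads were sequenced; the kit does not mark strand. The submitters' processing notes name GSNAP, Partek and limma and the builds mm10 and GRCm38; roles and settings were not given in the sources used here. Per-gene values in the deposited table are raw counts, whole numbers made by the authors. The series' design text describes another experiment and was not used.

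Tests used edgeR 4.0.16 (R 4.3.3), with low counts removed by filterByExpr, TMM scaling, robust quasi-likelihood fits with group as the only term on all libraries, and Benjamini-Hochberg adjusted p over all genes under 0.05. SE is the log2 fold change over the root of F. CPM uses the summed counts of tested genes times the TMM factor, and 6 of 93 members were not tested. Alternatives were DESeq2 1.42.0, limma 3.58.1 (voom, with and without quality weights), RLE or no scaling, other count filters, a replicate block, each library left out, and, added after seeing the data, 10 libraries. Fits were tested on simulated counts. Between libraries, chi-square over its degrees of freedom was at least 18.6, so none was counted as a repeat. Members and lists were chosen with earlier results of these data known. Named members followed a rule: per complex the 2 highest per length, per comparison the 3 highest and 3 lowest log2 fold changes at 10 CPM or more, all rare isoforms, and the smallest p of each related list. Other members were named after their values were seen. The values of 1 member are not reported here.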

Additional observations from a re-analysis of the deposited data

Results flagged for a closer look

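Values here stood apart from the other 3 libraries of their group by Dixon's test for 4 values at the 95% level, which by chance picks out about 1 in 20 groups. Bleomycin KO 1 was low in the sum over all members (9572 CPM), in complex I (2647 CPM) and in complex IV (1699 CPM). Bleomycin WT 4 was high in complex II (2552 CPM) and complex III (2836 CPM), and in Sdhb (1563 CPM), Uqcrq (1371 CPM), Ndufa7 (449 CPM), Ndufaf4 (118 CPM), Ndufaf1 (94.7 CPM) and Cox4i2 (6.4 CPM). Saline WT 2, where 3 counts are worth 32.4 CPM, was high in Ndufa2 (746 CPM), Cox6a1 (540.5 CPM), Ndufa13 (422 CPM), Ndufs4 (238 CPM) and Ndufaf1 (130 CPM) and low in Uqcr10 (21.6 CPM). Rare isoforms stood apart on few counts: Cox6a2 in saline WT 3 (7.48 CPM), Cox8b in saline WT 4 (1.59 CPM) and bleomycin WT 3 (0.568 CPM), Cox8c in saline WT 4 (2.03 CPM), and Cox7b2 in saline WT 4 (0.290 CPM) and bleomycin KO 4 (1.25 CPM). For Cox7b2, Cox8c and Cox8b in bleomycin WT 3, the other 3 libraries of the group had 0 counts. There any count gives the highest value of the test, so the rate of about 1 in 20 does not apply.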

How the results depend on the processing

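No member was called in any comparison under any alternative run. With each library left out in turn, the members' median log2 fold change ran from 0.34 to 0.73 for bleomycin WT against saline WT, from 0.33 to 0.52 for KO against saline WT and from -0.15 to 0.07 for KO against bleomycin WT, the last turning positive without bleomycin WT 4. Calls over all genes moved by over 1.5 times: 4, 0 and 3 by edgeR in the order bleomycin WT against saline WT, KO against bleomycin WT and KO against saline WT, 1, 0 and 1 with RLE scaling, 2, 0 and 1 with the replicate block, 499, 0 and 370 by DESeq2, 1, 0 and 12 by limma-voom, 295, 0 and 226 with quality weights, 780, 243 and 694 with no count filter, and 81, 0 and 121 over 10 libraries. Leaving out 1 library gave 1 to 11 calls in the first comparison, 0 in the second and 0 to 18 in the last, with 11 and 18 without bleomycin WT 4 and 2 and 10 without saline WT 2. Without TMM scaling the mean sum of complex I in saline WT was 3589 CPM, and complex V had means of 2739 (saline WT) and 2999 CPM (bleomycin WT, 3264 with RLE scaling). Among 25 named members, the sign turned in 46, 45 and 31 of 497 refits in that order, none past the threshold. Same-numbered libraries of different groups correlated at -0.20 to 0.10 and differently numbered ones at -0.26 to 0.39. With 4 libraries a group these values cannot tell whether equal numbers mark a pair. With the replicate block no member was called and the medians were 0.53, -0.05 and 0.44. Saline WT 2 limits what low members can show.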
